A study of Mus musculus with 6 samples.

Results

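The heme synthesis pathway was described through 9 genes chosen by name: 7 of its enzymes in pathway order (Alas1, Alad, Uros, Urod, Cpox, Ppox and Fech) and Clpx and Lonp1, whose proteins act on ALAS1 inside mitochondria. They are 9 of the 19617 rows of the deposited table, and all 9 passed the filter on low values that left 11980 genes for testing. RNA came from Lewis lung carcinoma (LLC) cells, a mouse lung tumour line grown in culture, which carried a lentiviral short hairpin RNA (shRNA) switched on by doxycycline. In 3 libraries the hairpin was scrambled (genotype given as Urod wildtype) and in 3 it was directed at Urod (genotype given as Urod knockdown), and all 6 had received doxycycline at 2 ug/mL for 4 days. The labels do not say how many hairpins, infections or clones stand behind a group, or whether the replicates are separate cultures. The p-values thus rest on the scatter of these libraries alone, and that scatter may be technical.

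Heme is made in steps that begin and end in the mitochondrion. ALAS1 joins glycine to succinyl-CoA, ALAD and later UROS build the porphyrin ring in the cytosol, UROD removes carboxyl groups from it, and CPOX, PPOX and ferrochelatase (FECH) oxidise it and insert iron on the way to heme. ALAS1 sets the pace outside red cell precursors, and heme restrains it at several levels, among them transcription, messenger stability and breakdown of the protein by mitochondrial proteases. CLPX is the unfoldase partner of the protease CLPP, and LONP1 is a protease of its own. Both have been linked to heme-dependent loss of ALAS1, and in yeast the CLPX counterpart also helps to load the cofactor of the enzyme.

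Of these genes, 8 have entries in the RefSeq promoter table (build GRCm38.p6), Fech having none. The stretches that follow lie near the starts of the gene with the largest rise (Alas1), the enzyme with the largest fall after the target (Ppox) and both protease genes. Each is given from its 5′ to its 3′ end on the strand of the gene, with capitals for matches to 6 motifs searched on both strands: the NRF1 core GCATGCGC, the CCAAT box CCAAT, the E-box CACGTG, the cAMP response element TGACGTCA, the amino acid response element TGATGNAA and the antioxidant response element core TGACNNNGC. For Alas1 only 30 bases are given, at chr9:106247906-106247935, minus strand. They lie inside the annotated gene, after its upstream RefSeq start and before the downstream one. For the other 3 genes the 250 bases before the start are given, at chr1:171281187-171281436 (minus strand) for Ppox, chr9:65294010-65294259 (plus strand) for Clpx and chr17:56626904-56627153 (minus strand) for Lonp1.
Alas1: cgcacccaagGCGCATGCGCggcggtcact
Ppox: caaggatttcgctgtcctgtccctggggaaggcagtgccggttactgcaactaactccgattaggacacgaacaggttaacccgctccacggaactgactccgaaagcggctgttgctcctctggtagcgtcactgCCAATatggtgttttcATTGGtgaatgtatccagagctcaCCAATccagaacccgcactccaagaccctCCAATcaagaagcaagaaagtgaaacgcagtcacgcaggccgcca
Clpx: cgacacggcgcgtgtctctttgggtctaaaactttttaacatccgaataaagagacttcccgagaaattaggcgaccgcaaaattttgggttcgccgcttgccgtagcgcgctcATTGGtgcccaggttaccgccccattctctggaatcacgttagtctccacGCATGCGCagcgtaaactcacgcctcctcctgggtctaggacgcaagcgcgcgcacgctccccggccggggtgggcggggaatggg
Lonp1: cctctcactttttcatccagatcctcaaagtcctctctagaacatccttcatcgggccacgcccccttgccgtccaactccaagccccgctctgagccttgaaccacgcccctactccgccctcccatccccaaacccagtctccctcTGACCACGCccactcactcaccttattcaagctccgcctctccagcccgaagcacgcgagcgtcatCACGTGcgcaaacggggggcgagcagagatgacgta

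The NRF1 core, the binding motif of a transcription factor of mitochondrial genes, occurred within 250 bases of the start in 2.26% of the 32851 promoters, and among the 8 genes with an entry in Alas1 and Clpx. Alas1 has 2 RefSeq starts that lie 224 bases apart. Its 2 overlapping matches form the capitals above, a single stretch that reads the same on both strands, so they do not count as separate sites. They stood 195 to 186 bases before the downstream start and 29 to 38 bases after the upstream one. The single match of Clpx stood 86 to 79 bases before its start. Ppox held 4 CCAAT boxes, and 0.84% of promoters held as many; 33.8% held at least 1. Lonp1 held an E-box, found in 6.02% of promoters and also present at Urod, Uros and Alad, and an antioxidant response element core, found in 10.2%. Neither TGACGTCA (1.55%) nor TGATGNAA (3.45%) matched any of the 11 starts of the 8 genes. These 6 motifs were kept, after their matches in these genes had been seen, from a longer set that also held the GC box, the ETS and YY1 motifs, a shorter cAMP response element and longer forms of the NRF1 and CCAAT motifs. The count of CCAAT boxes at Ppox was likewise picked after it was seen, so these shares are descriptions only. A match of letters does not show binding, and none was measured.

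The unit of all levels is TPM (transcripts scaled for gene length and library total), so that genes can be set side by side within a library but absolute depth is unknown. In RNA from whole cultures, fewer cells of a type and less RNA per cell cannot be told apart. Changes are given on the log2(TPM + 1) scale as Urod shRNA minus scrambled, with the standard error (SE) and the Benjamini-Hochberg adjusted p of limma, a linear model fitted over all tested genes. A change was called at an adjusted p under 0.05. By that rule 74.7% of all tested genes were called, 38.5% higher and 36.2% lower, and for 77.3% the groups did not overlap. A call is therefore the usual outcome for a gene in these libraries. Of the 9 genes 4 rose (Alas1, Uros, Clpx and Lonp1), 4 fell (Urod, Ppox, Fech and Alad) and Cpox did not pass, a share near that background, and their median change was 0.01 against 0.02 over all tested genes.

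**Figure D1:**
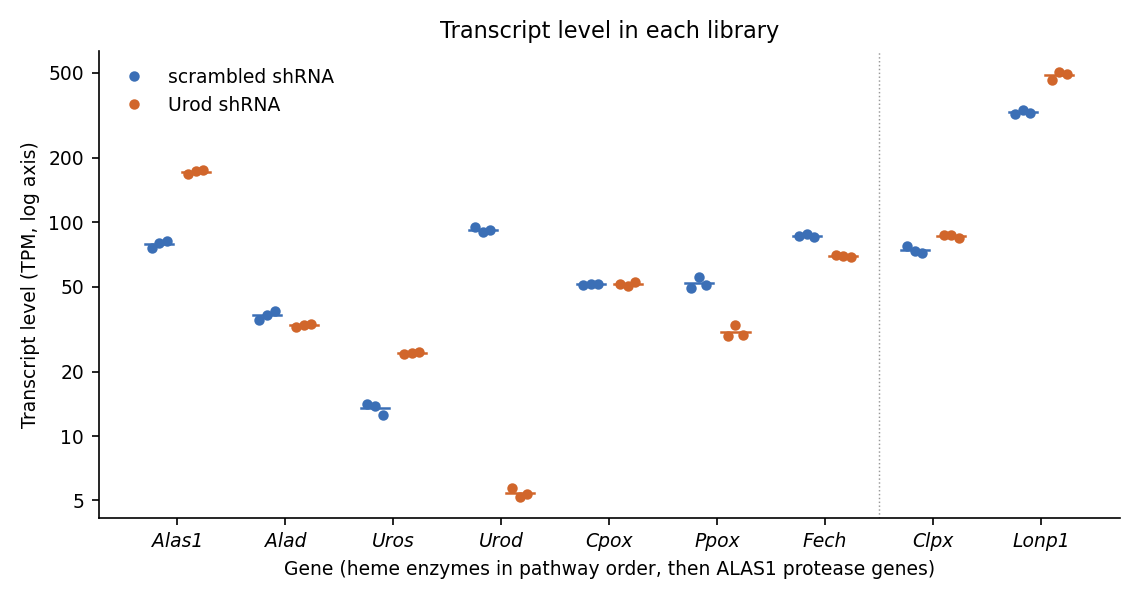
Transcript level in TPM (log axis) of the 9 genes in each library, with 3 points per group and a line at the group mean. Groups are apart for every gene except Cpox, and Urod falls from near 92 to near 5 TPM.

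The targeted gene itself checked the labels. Urod, the decarboxylase of the pathway, stood at 95.2, 89.9 and 92.1 TPM in scrambled libraries and at 5.71, 5.21 and 5.35 TPM in Urod shRNA libraries. Every library thus matched its label. The change was -3.86 (SE 0.05; limma, adjusted p = 8.22e-09), the 95% interval ran from -3.97 to -3.76, and 5.87% of the scrambled level was left. Urod was the second most abundant of the 9 transcripts in scrambled cells, after Lonp1, and the least abundant of them in Urod shRNA cells. It lies on chromosome 4 from 116989965 to 116994413 (GENCODE M21 on GRCm38, as for all gene positions here), and of the 9 genes it was the one that the authors' deposited pathway list of 451 genes included.

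Ahead of the targeted step, Alas1 and Uros were higher and Alad slightly lower. Alas1, the entry enzyme, stood at 75.9, 79.8 and 81.4 TPM in scrambled libraries and at 168, 173 and 175 TPM with the Urod hairpin. Its lowest Urod shRNA value was far above its highest scrambled value, and the change was 1.11 (SE 0.04; limma, adjusted p = 2.32e-07). In absolute size that change exceeded those of 94.6% of tested genes. With it Alas1 passed Urod and Fech in level and stood behind Lonp1 alone. Its neighbour in the scrambled order was Clpx, and the ranges of those transcripts overlapped there but not in Urod shRNA libraries.

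Uros, which closes the porphyrin ring in the step just ahead of UROD, was the scarcest of the enzyme transcripts in scrambled cells, at 14.2, 13.8 and 12.6 TPM. In Urod shRNA libraries it stood at 24.2, 24.4 and 24.8 TPM, a rise of 0.81 (SE 0.05; limma, adjusted p = 5.44e-06) with no overlap. Uros shares 740 bases with Bccip, a gene on the opposite strand that rose by 0.40 (SE 0.06; limma, adjusted p = 0.000346), from 100 to 133 TPM. Whether the authors' counting used strand is not given here, so the value of Uros is uncertain to that extent. The same holds for Alas1, which shares 695 bases with the antisense gene 4930500F10Rik, for Cpox with Gpr15 (204 bases) and for Clpx with the pseudogene Gm16218 (388 bases), and no values of those 3 partners were used here. Alad, which joins pairs of aminolevulinic acid molecules, stood at 35.0, 36.9 and 38.6 TPM with the scrambled hairpin and 32.4, 33.0 and 33.5 TPM with the Urod hairpin. The groups did not overlap, and the fall of 0.16 (SE 0.04; limma, adjusted p = 0.0130) was the smallest among the called changes of the 9 genes.

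After the targeted step, the 3 enzymes differed in how they moved. Cpox, whose enzyme acts next, stood at 51.0, 51.4 and 51.2 TPM with the scrambled hairpin and 51.6, 50.2 and 52.7 TPM with the Urod hairpin. The groups overlapped, the change was 0.01 (SE 0.03; limma, adjusted p = 0.855), and its 95% interval ran from -0.07 to 0.08. Only 1.1% of tested genes had a change of that absolute size or smaller. Its sign turned with quantile normalization, without Urod shRNA replicate 3 and without the Rn45s and Hspa5 rows.

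Ppox, the enzyme that oxidises protoporphyrinogen, stood at 49.4, 55.4 and 50.7 TPM with the scrambled hairpin and 29.2, 33.0 and 29.7 TPM with the Urod hairpin. The groups did not overlap, and in both of them replicate 2 was the highest. The fall of 0.74 (SE 0.06; limma, adjusted p = 2.02e-05) was the largest among the enzymes other than Urod. Ppox shares 907 bases at its end with B4galt3 on the opposite strand, which fell by 0.18 (SE 0.04; limma, adjusted p = 0.00370), so the same limit on strand applies. Fech, which inserts iron, stood at 85.8, 87.8 and 84.8 TPM with the scrambled hairpin and 70.0, 69.4 and 68.5 TPM with the Urod hairpin. All 3 values with the Urod hairpin were lower, by 0.31 on average (SE 0.03; limma, adjusted p = 3.95e-05), a size near the median size of change over all tested genes (0.32).

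**Figure D2:**
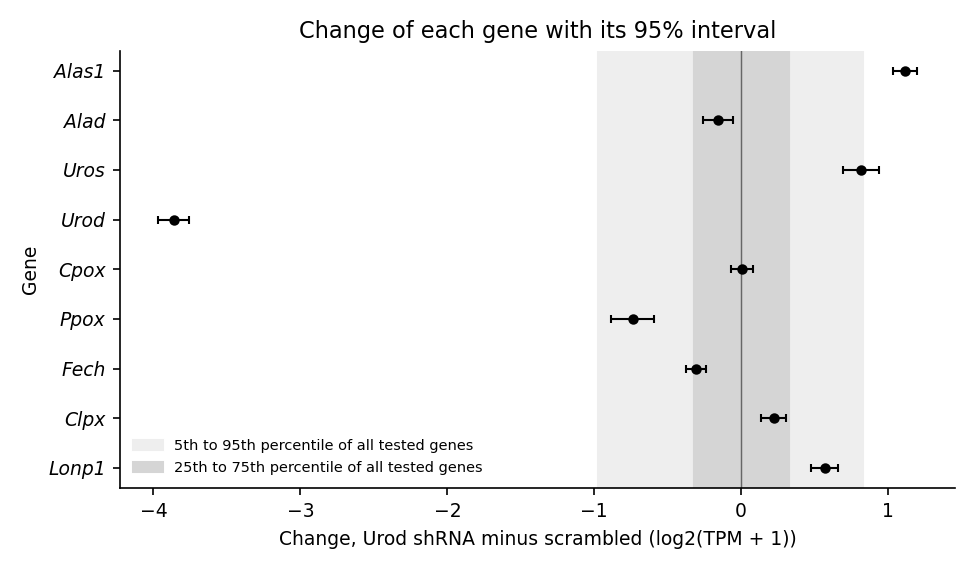
Change of each gene on the log2(TPM + 1) scale, Urod shRNA minus scrambled, as a point with its 95% interval, over shaded ranges of the changes of all tested genes. Urod and Alas1 lie outside the range from the 5th to the 95th percentile (-0.98 to 0.83), while Cpox, Alad, Fech and Clpx lie within that from the 25th to the 75th (-0.32 to 0.33).

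The genes for the proteases that act on ALAS1 were higher. Clpx stood at 77.1, 73.0 and 71.5 TPM with the scrambled hairpin and 87.4, 86.9 and 84.6 TPM with the Urod hairpin, a rise of 0.22 (SE 0.04; limma, adjusted p = 0.000896). Lonp1, the most abundant of the 9 transcripts in both groups, stood at 319, 336 and 325 TPM with the scrambled hairpin and 462, 504 and 491 TPM with the Urod hairpin. It rose by 0.57 (SE 0.04; limma, adjusted p = 7.78e-06). Neither gene had overlapping groups. Clpp, which encodes the protease that CLPX feeds, rose more than Clpx did, from 53.8 ± 3.43 to 94.3 ± 3.44 TPM (SD, n = 3 each). Within a library, Clpp stood at 0.646, 0.761 and 0.783 of the Clpx level in scrambled and at 1.03, 1.10 and 1.15 of it in Urod shRNA libraries.

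Ratios between transcripts of one library do not depend on how libraries are scaled. The Alas1 to Urod ratio was 0.798, 0.888 and 0.884 in scrambled libraries and 29.5, 33.3 and 32.6 in Urod shRNA libraries. The Uros to Urod ratio went from 0.146 ± 0.00876 to 4.52 ± 0.233 (SD, n = 3 each). Both ratios contain the targeted transcript. Relative to Alas1, the protease genes went the other way although their own levels rose. The Clpx to Alas1 ratio was 1.02, 0.915 and 0.879 in scrambled and 0.520, 0.501 and 0.485 in Urod shRNA libraries. The Lonp1 to Alas1 ratio was 4.20, 4.21 and 4.00 against 2.74, 2.91 and 2.81. None of these ratios overlapped between groups, and with 3 libraries against 3 an exact two-sided permutation test can give no p below 0.1.

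The summed level of the 7 enzymes differed less between groups than its make-up did. The sum was 406, 415 and 411 TPM with the scrambled hairpin and 381, 388 and 389 TPM with the Urod hairpin. Alas1 made up 19.2% ± 0.552 of it in scrambled and 44.5% ± 0.393 in Urod shRNA libraries (SD, n = 3 each), and Urod 22.5% ± 0.883 and 1.40% ± 0.0811. Without those genes, the other 5 enzymes summed to 239 ± 5.19 TPM and 209 ± 1.26 TPM (SD, n = 3 each). Of the sum of all 7, the share of Ppox went from 12.6% to 7.93% and that of Uros from 3.29% to 6.33%.

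**Figure D3:**
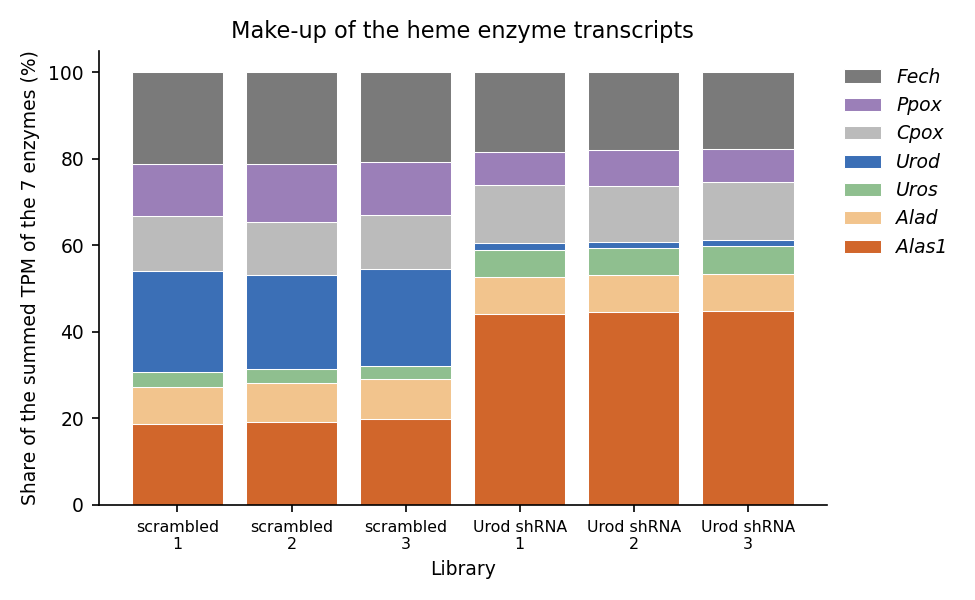
Share of each enzyme, in percent, of the summed TPM of the 7 enzymes in each of the 6 libraries, as stacked bars. Alas1 grows from about 19.2% to 44.5% and Urod shrinks from about 22.5% to 1.40%, with little difference among libraries of a group.

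Alas1 and Clpx share chromosome 9, Alad and Urod share chromosome 4, and the other genes lie on a chromosome each. Besides Urod and Alas1, Alad lies on chromosome 4 (62509169 to 62519918), Uros on chromosome 7 (133686243 to 133710072), Cpox on chromosome 16 (58670292 to 58717636) and Ppox on chromosome 1 (171275990 to 171281186). Fech lies on chromosome 18 (64452914 to 64490251), Clpx on chromosome 9 (65294260 to 65330658) and Lonp1 on chromosome 17 (56614297 to 56626887).

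The order of the levels differed between groups in more than these places. In scrambled libraries it ran Lonp1, Urod, Fech, Alas1, Clpx, Ppox, Cpox, Alad and Uros, and the library values of Alas1 and Clpx, and of Ppox and Cpox, overlapped. In Urod shRNA libraries it ran Lonp1, Alas1, Clpx, Fech, Cpox, Alad, Ppox, Uros and Urod, and only Alad and Ppox overlapped as neighbours. In the authors' deposited table the log2 fold changes were -4.08 for Urod, 1.13 for Alas1, 0.87 for Uros, 0.58 for Lonp1, 0.23 for Clpx, 0.01 for Cpox, -0.15 for Alad, -0.31 for Fech and -0.75 for Ppox. The authors' deposited table has FDR under 0.05 for all of these but Cpox (FDR 0.836). It comes from the same libraries and is not an independent measurement.

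Around the enzymes stand the carriers that bring in substrates and iron and move porphyrins. Of 15 such carriers and partner genes, all tested, 8 rose and 5 fell, with a median change of 0.19, beside the 38.5% and 36.2% of all tested genes that rose and fell. Of the 5, Suclg2, a subunit gene of the enzyme that handles succinyl-CoA, lost its call with median-ratio scaling, with quantile normalization and without scrambled replicate 1 or 2 or Urod shRNA replicate 2 or 3 (limma, adjusted p between 0.0550 and 0.0779). Tspo, an outer membrane protein gene that did not pass, was called lower without scrambled replicate 1 (-0.16; limma, adjusted p = 0.0291). The glycine carrier gene Slc25a38, which supplies the ALAS step, rose from 18.4 ± 0.535 to 27.3 ± 0.875 TPM (SD, n = 3 each). Both mitoferrin genes, which encode the iron carriers of the inner membrane, fell: Slc25a37 by 0.30 and Slc25a28 by 0.60 on the log2 scale. Abcb10, a partner of mitoferrin 1 in the inner membrane, rose by 0.31, and the related transporter gene Abcb8 rose by 0.63. Abcb6, a porphyrin transporter, fell from 37.1 ± 1.54 to 21.9 ± 0.291 TPM (SD, n = 3 each), by 0.73.

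Genes that control Alas1 transcription showed no common direction. Of 10 listed, 6 were tested. Nrf1, whose product binds the NRF1 motif, rose, and Nr1d1 and Foxo1 fell. Over all tested genes 38.5% rose and 36.2% fell, so calls in both directions are usual here. Nrf1 stood at 16.7, 17.2 and 17.1 TPM with the scrambled hairpin and 20.4, 21.2 and 20.8 TPM with the Urod hairpin, with no overlap, a rise of 0.28 (SE 0.04; limma, adjusted p = 0.000360). Nr1d1, which encodes the heme-binding repressor REV-ERB alpha, stood at 70.2, 76.4 and 77.9 TPM against 45.8, 56.4 and 52.9 TPM, a fall of 0.53 (SE 0.08; limma, adjusted p = 0.000463). Foxo1 fell by 0.24, a call that was lost with quantile normalization (-0.15; limma, adjusted p = 0.0543). Nr1d2, the related REV-ERB beta gene, changed by 0.03 and the corepressor genes Hdac3 and Ncor1 by 0.03 and -0.11, and these did not pass. Ncor1 was called lower without Urod shRNA replicate 2 (-0.18; limma, adjusted p = 0.0265). The coactivator genes Ppargc1a (0.258 and 0.120 TPM) and Ppargc1b (0.496 and 0.332 TPM) and the xenobiotic receptor genes Nr1i2 and Nr1i3 were under the filter in both groups.

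Lonp1 and Clpx were set beside 11 other genes of mitochondrial proteases. All 11 were tested, 8 rose and 3 fell, with a median of 0.15 against 0.02 over all tested genes, of which 38.5% rose and 36.2% fell. Clpp (0.80, SE 0.05) had the largest change of the list, followed by Pmpca (0.43) and Parl (0.31), and Pmpcb (0.23) and Pitrm1 (0.15) also rose. Pmpca and Pmpcb encode the processing peptidase that removes import signals, and Parl a protease of the inner membrane. Mipep, which encodes a further processing peptidase, fell by 0.23. With quantile normalization 5 of the 11 rose, the calls of Yme1l1, Spg7 and Pitrm1 being lost. Oma1, one of the 3 that fell, lost its call there, with no filter on low values, with median-ratio scaling and without any one library other than Urod shRNA replicate 1 (limma, adjusted p between 0.0559 and 0.203).

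Of the 3 genes that use heme for cytochromes, Cox10, which encodes the farnesyl transferase that starts heme a synthesis, rose from 16.3 ± 0.458 to 26.0 ± 1.32 TPM (SD, n = 3 each), by 0.64. Cox15, which acts after it, changed by 0.08 (SE 0.05; limma, adjusted p = 0.196). Hccs, the enzyme gene for heme attachment to cytochrome c, rose by 0.13, a call that was lost with median-ratio scaling, with quantile normalization and without scrambled replicate 2 or 3.

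**Figure D4:**
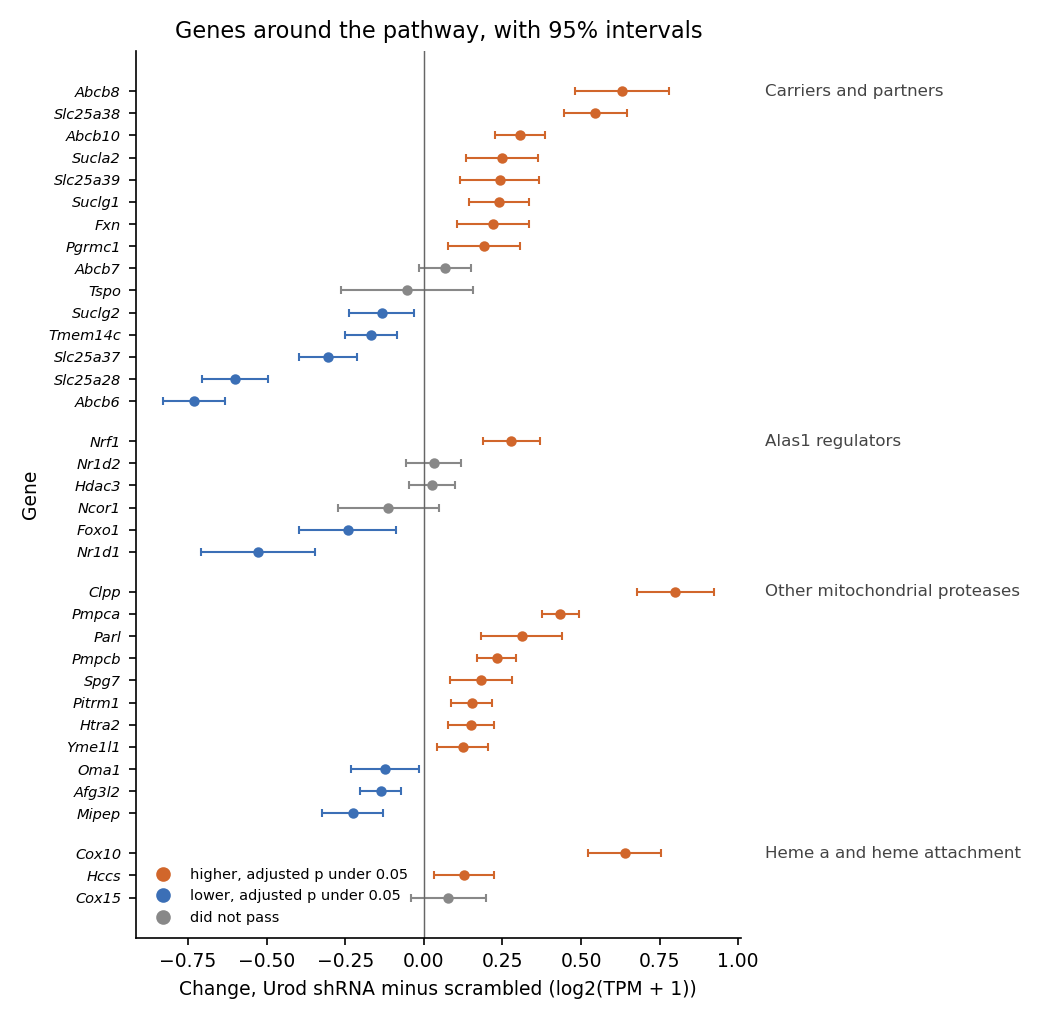
Change of each tested gene of the 4 lists around the pathway, on the log2(TPM + 1) scale as Urod shRNA minus scrambled, with 95% intervals and coloured by call. Clpp (0.80) has the largest rise and Abcb6 (-0.73) the largest fall of these lists.

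The cells did not show the erythroid form of the pathway, in which ALAS2 takes the place of ALAS1. Alas2 stood at 0.0462 TPM with the scrambled hairpin and 0.0616 TPM with the Urod hairpin, against 79.0 and 172 TPM for Alas1. Of 11 erythroid markers 8 were in the table, none at 0 in all libraries, and their summed level lay between 6.34 and 7.50 TPM with the scrambled hairpin and between 5.57 and 6.36 TPM with the Urod hairpin. Slc4a1 and Epor passed the filter and fell by 0.45 and 0.58. Of the epithelial markers looked for in this carcinoma line, Krt8 stood at 315 and 459 TPM and Epcam at 1.96 and 0.943 TPM, while Krt18, Krt19, Cdh1 and Cldn4 were under 1 TPM. Of the 7 leukocyte and endothelial markers, 5 were in the table, and they summed to between 5.10 and 5.59 TPM with the scrambled hairpin and between 8.76 and 9.68 TPM with the Urod hairpin. Pecam1 rose by 0.55, and the leukocyte gene Ptprc stood at 0.0590 and 0.0410 TPM. The ribosomal RNA precursor Rn45s went from 1313 ± 181 to 3782 ± 297 TPM (SD, n = 3 each). The part of these markers and of Rn45s in the changes of the heme genes was not tested.

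Next to Alas1 on chromosome 9 (106233455 to 106248654) lie genes that also rose. Twf2, which encodes the actin-binding protein twinfilin 2 and starts at 106203108, stood at 69.7, 77.0 and 78.1 TPM with the scrambled hairpin and 260, 280 and 285 TPM with the Urod hairpin. It rose by 1.86 (SE 0.05; limma, adjusted p = 1.59e-07), more than Alas1, from which 18.1 kb separate it; the rise of Twf2 was known when neighbours were chosen for description. Between them lies the innate immune receptor gene Tlr9, 6.57 kb from Alas1, which rose by 0.91 from a low level of 1.06 ± 0.180 to 2.91 ± 0.728 TPM (SD, n = 3 each). The genes farther out had smaller changes of either sign. Ppm1m, beyond Twf2, fell by 0.11, and Poc1a, on the other side of Alas1, fell by 0.30. Farther on that side Dusp7 rose by 0.27 and Rpl29 by 0.37 (limma, adjusted p = 0.0497). Rpl29 is a ribosomal protein gene whose family has many pseudogene copies, and its value is uncertain. Of the 38 tested neighbours of all 9 genes 81.6% were called, 17 higher and 14 lower, beside 74.7% of all tested genes. On the log2(TPM + 1) scale 3 changed by 1 or more: Twf2, Fank1 near Uros and Adamts4 near Ppox. Tlr9 stayed below that size on this scale, although its mean TPM was 2.74 times as high with the Urod hairpin.

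**Figure D5:**
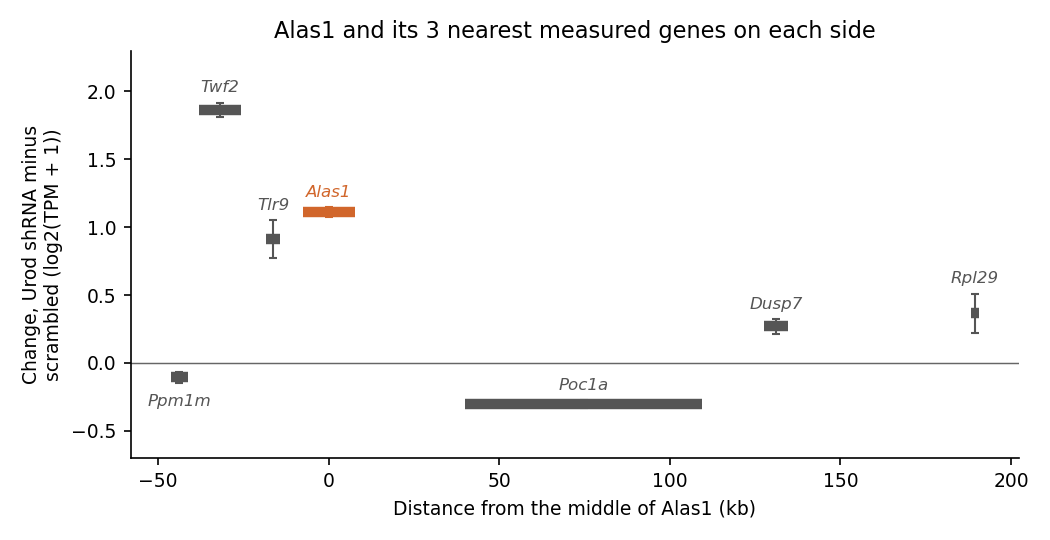
Change on the log2(TPM + 1) scale, Urod shRNA minus scrambled, of Alas1 and its 3 nearest measured protein-coding genes on each side, against distance in kb; bars span the genes and error bars are SE. Twf2 (1.86), Tlr9 (0.91) and Alas1 (1.11) stand above the genes farther out.

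Across the 6 libraries, the genes whose values lay nearest to those of Alas1, among 5989 candidates at or above the median level of 28.4 TPM, were Xpot, Ncoa5, Adsl, Ftsj3 and Nop2. Likeness was the Euclidean distance between log2(TPM + 1) values centred on the scrambled mean, and it lay between 0.0546 for Xpot and 0.0825 for Nop2. Their changes were between 1.09 and 1.14, and 67 candidates had a change within 0.1 of that of Alas1.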

How the data were processed

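Per the labels' protocols, strand-specific libraries of polyadenylated RNA were read as 51-bp single ends, mapped to mm10 with TopHat, filtered for mapping quality of at least 10, and quantified by Cufflinks with Cuffdiff, whose version the submitters' processing notes give as 2.1.1. Genes with near-identical copies can lose reads to that filter. The authors' deposited values were read as TPM: each column sums to 1000000, and log2 TPM minus log2 CPM of the authors fell with the log2 length of the longest transcript (Pearson r = -0.907 over 11435 genes, which are not independent replicates). TPM keep no read counts, so no counting interval can be given. Per the file headers, the authors' comparison table gives the log2 fold change, log2 CPM, p-value and FDR of each gene beside a likelihood ratio score.

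Rows named by a date (27, at most 0.241% of TPM) were left out. Genes averaging 1 TPM or more were fitted as log2(TPM + 1) with limma 3.58.1 in R 4.3.3 (variance trend, two-sided, Benjamini-Hochberg over 11980 genes). The procedure was run on simulated data in which far fewer genes changed than were called here, so that run does not test this setting. The pseudocount understates changes of low genes. The alternatives changed the pseudocount, the filter, the scaling or the variance trend, added a replicate block, or left out a library. Named were all 9 genes, all tested genes of lists of up to 6 and otherwise the 6 with the smallest adjusted p, 3 neighbours per side, and 5 genes most like Alas1. Yme1l1, Spg7, Oma1, Suclg2, Tspo and the marker genes were named after their values were seen. The genes and lists were chosen with earlier results of these data known, and the 6 motifs were kept from a longer set after their matches had been seen. Another enzyme of the pathway is not reported here. Figures were drawn with matplotlib 3.10.9.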

Additional observations from a re-analysis of the deposited data

How the results depend on the processing

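All 9 genes were refitted under 15 alternatives, 6 of them leaving out a library, and each time 4 rose and 4 fell. The share of all tested genes called lay between 52.5% with no filter on low values and 82.5% with the replicate block. Leaving out a library gave -3.89 to -3.84 for Urod, 1.09 to 1.13 for Alas1, -0.19 to -0.12 for Alad (highest adjusted p = 0.0481 by limma) and -0.0095 to 0.0244 for Cpox. Among the other settings Urod lay between -4.07 and -2.73, the smaller size with a pseudocount of 10. Cpox, not called in any setting, reversed in sign with quantile normalization (-0.0173), without Urod shRNA replicate 3 (-0.0095) and, in a setting added after the data were seen, without the Rn45s and Hspa5 rows (-0.0107). Among Alas1 regulators 1 was lower rather than 2 with quantile normalization and with a minimum of 10 TPM, where Foxo1 is no longer tested, and 3 were lower with no filter on low values, with the replicate block and without Urod shRNA replicate 2. With quantile normalization 5 rather than 8 other proteases were higher. Of the heme a and heme attachment genes 1 rather than 2 was higher with quantile normalization and with median-ratio scaling, 1 to 2 when a library was left out, and 3 with the replicate block. Those causes were not tested.

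Same-numbered libraries deviated together with r = 0.418, 0.214 and 0.0951, and scrambled replicate 3 correlated better with Urod shRNA replicate 2 (0.203). Replicate 1 of either group had r between -0.335 and -0.141 with the other numbers of the other group. Deviations from a mean of 3 libraries constrain each other, so these values cannot settle whether the numbers are pairs. The main fit did not take them as pairs. With the replicate block 82.5% of genes were called, Urod changed by -3.86, and 4 of the 9 genes rose and 4 fell. The SE of each of the 9 genes was smaller with the block, for Ppox 0.02 rather than 0.06. The block added calls for Ncor1 (-0.11; limma, adjusted p = 0.0298) and Cox15 (0.08; limma, adjusted p = 0.0375) and changed no other call of a listed gene. Over all genes, the settings gave 3720 to 5119 higher and 3177 to 5167 lower, with fewer genes tested at the low end and more at the high end. TPM hide the depth behind low genes such as Tlr9.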

Other observations

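Neighbours of other heme genes moved in both directions. Adamts4, a matrix protease gene 15.4 kb from Ppox, fell by 1.46 (SE 0.12; limma, adjusted p = 2.38e-05), while Ufc1 and Dedd on the other side of Ppox rose by 0.42 and 0.66. Fank1, near Uros, fell from 3.44 to 1.19 TPM, a low level. Nars, a cytosolic tRNA synthetase gene next to Fech, rose by 0.72, from 618 to 1021 TPM, where Fech fell by 0.31. Hectd3, which starts 0.903 kb from Urod, fell by 0.20 (SE 0.07; limma, adjusted p = 0.0423), and Eif2b3 beyond it rose by 0.33. Around Cpox 1 of 4 tested neighbours was called, Dcbld2 (-0.27), beside 74.7% of all tested genes, and so few genes allow no statement about the region.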
